A study of Saccharomyces cerevisiae with 21 samples.

Results

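The data described here are the 12 arrays, of 21 in the series, that follow budding yeast from the dry state through the early part of rehydration. They comprise 3 arrays of dry cells and 3 arrays each of cells at 15, 45 and 90 min after water was returned. The arrays were chosen by their titles alone, and the log2 signal of each probe set was fitted as a straight line on minutes of rehydration, with dry cells at 0 min. The aim was to find slow drifts, that is, changes that build up over the whole course and that no comparison of neighbouring time points picks up.

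All cells were Saccharomyces cerevisiae BY4743, a diploid laboratory strain of the S288C background. As background, this strain carries deletions in HIS3, LEU2 and URA3 on both homologues and 1 deleted copy each of LYS2 and of MET17 (also called MET15). Seed cultures had grown in rich glucose medium (YPD) at 30 °C to an absorbance of 0.8, and were then spread in dishes of 15 ml in YPD diluted 20-fold. Dry cells had dried for 42 h at 22 to 25 °C and had then stood for 72 h at 20% relative humidity. The rehydrated cells came from 4 dishes, wetted with the same 20-fold diluted medium and pooled in 1 flask, so they met dilute nutrients together with water, and the effects of the 2 cannot be told apart. Control cells, taken in the same dilute medium before drying, and 50% dry cells (18 h of drying) are used below only for comparison, as are cells at 360 min. Nothing in the labels says that replicates came from separate cultures, and p-values then measure only the spread between these samples.

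A dry yeast cell has lost nearly all free water, does not grow and makes little or no RNA, but keeps a store of messages that can be read when water returns. On wetting, membranes reseal, respiration restarts and repair begins before division resumes. Yeast respiration depends on 2 genomes. Most subunits of the respiratory complexes are encoded in the nucleus, whereas a few core subunits are encoded in mitochondrial DNA and read by the organelle's own RNA polymerase. Small nucleolar RNAs (snoRNAs) guide the modification and cutting of ribosomal RNA in the nucleolus, and small nuclear RNAs (snRNAs) form the spliceosome. An array signal is a share of the RNA hybridized and not an amount per cell, so less RNA per cell and fewer cells that hold it cannot be told apart.

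Across probe sets, arrays of the same group correlated at 0.985 to 0.992. The groups were not spread evenly over hybridization runs, which were inferred here from the recorded hybridization times. Dry and 15 min arrays shared 1 hybridization run, 15 and 45 min arrays shared another, and the 3 arrays of 90 min had a run and a scan day of their own, so the 90 min point cannot be told apart from its run and day. The median signal of an array fell by 31.2 along the fitted line, from a mean of 205 ± 3.002 (SD, n = 3) in dry cells to 171 ± 6.80 at 90 min (exact permutation test over 369600 assignments, two-sided, p = 0.00145, adjusted p over 4 such checks = 0.00194). Control probe sets at the 2 ends of 3 messages also moved with time. The 3′ set of ACT1 (actin) exceeded its 5′ set by 0.93, 0.98 and 0.92 log2 units on the dry arrays and by 2.40, 1.97 and 2.37 at 90 min. That difference grew by 1.28 over 90 min (exact permutation p = 2.71e-06, the smallest these assignments can give, adjusted p = 1.08e-05). It grew by 0.96 for SRB4, a Mediator subunit (exact permutation p = 0.000154, adjusted p = 0.000308), and by 1.03 for SPT15, the TATA-binding protein (exact permutation p = 0.00324, adjusted p = 0.00324). These measures of RNA or target quality therefore moved in the same order as the time points, and their part in the drifts below was not tested.

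**Figure D1:**
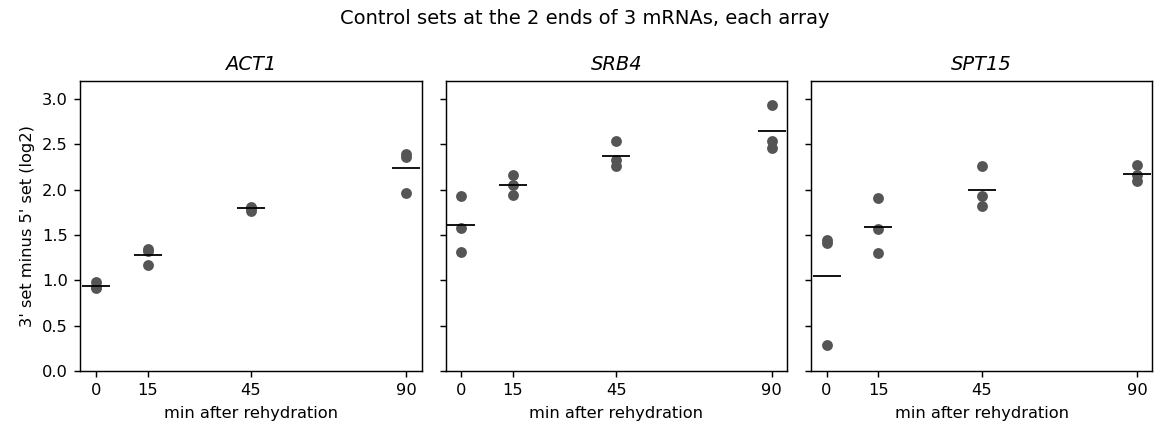
The log2 difference between the 3′ and the 5′ control set (y axis) against minutes after rehydration (x axis, dry cells at 0) for ACT1, SRB4 and SPT15, with 1 point per array and a dash at the mean of each group of 3. For ACT1 the group means are 0.94, 1.28, 1.79 and 2.24.

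A probe set was called when its slope had a Benjamini-Hochberg adjusted p under 0.05 in limma and its fitted change over 90 min was at least 2-fold, which is 1 log2 unit. All changes below are log2 differences fitted over 90 min with their standard error, unless stated otherwise. Of 9275 probe sets, 386 (4.16%) were called, 176 of them rising (1.90%) and 210 falling (2.26%). The balance depended on how arrays were scaled, with 132 rises and 322 falls at the deposited scaling and 293 rises and 148 falls when arrays were centred on their medians. Those scalings moved the median of all probe sets to -0.11 and 0.12, against 0.01 here. Without the fold minimum, 1454 probe sets rose (15.7%) and 1554 fell (16.8%). On 23.1% of probe sets all 3 arrays at 90 min lay above all 3 dry arrays, and on 23.6% all lay below.

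Comparisons of neighbouring time points found far fewer changes at the same thresholds. That gap was in large part fixed by the thresholds. The line counts its 2-fold minimum over 90 min, whereas each step covers only a part of that time. Apart from noise, a straight drift only just past 2-fold on the line thus cannot reach 2-fold in any step. On simulated data 0.5% of 200 straight 2-fold lines had a called step. From dry to 15 min 10 probe sets were called (0.108%), with 4 higher (0.0431%) and 6 lower (0.0647%). From 15 to 45 min 5 were called (0.0539%), with 2 higher (0.0216%) and 3 lower (0.0323%). From 45 to 90 min 18 were called (0.194%), with 5 higher (0.0539%) and 13 lower (0.140%). Together 32 probe sets were called in at least 1 step (0.345%).

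Slow drifts, called on the line and in no step, made up 365 of the 386 calls (3.94% of all probe sets), with 170 rising (1.83%) and 195 falling (2.10%). That share follows in large part from the thresholds, and a step that misses its threshold is not shown to be flat. When the steps were held to the adjusted p alone, 124 of the 170 rises and 84 of the 195 falls had no step that passed. The smallest slow change was 1.0001 in size, with the probe set just outside the fold minimum at 0.999. For slow rises, a median of 21.5% of the change from dry to 90 min came in the first 15 min, 35.9% between 15 and 45 min, and 38.8% between 45 and 90 min. For slow falls the medians were 24.4%, 31.4% and 45.6%. The 4 group means stood in order for 127 of the 170 rises and 167 of the 195 falls. The departure of the group means from the line passed an adjusted p of 0.05 on 10 probe sets in all (0.108%), and on 1 of the 365 slow drifts. With the dry arrays left out, the line over 15 to 90 min was called on 186 rising (2.01%) and 175 falling (1.89%) probe sets, among them 113 of the slow rises and 126 of the slow falls.

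Because run and time overlap, the line was also fitted with hybridization run as a fixed block. That fit draws its slope from the dry to 45 min contrasts within runs, since the 90 min arrays have no partner, and it called 49 rises and 5 falls. The direction was kept by 157 of the 170 slow rises and 193 of the 195 slow falls, but these arrays had also entered the line. Within the run that held 2 dry and 2 of the 15 min arrays, the 15 min arrays differed from dry by a median of 0.25 for slow rises and -0.27 for slow falls. The run with the 3 arrays of 45 min held only 1 array of 15 min, against which the medians were 0.39 and -0.42. The probe sets had been chosen for their slope on these same arrays, so these medians are descriptions only. Of the genes named below for their line, ADH6, SNR4, SNR7-L, SRC1 and ECM29 kept their call under this block, and DDR2, VAR1 and DSE4 changed sign, to -1.23, -0.81 and -0.09.

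The calls were spread unevenly over kinds of RNA. Among the 6291 probe sets of nuclear protein-coding genes, 39 rose and 196 fell, with a median change of -0.06. Among the 28 probe sets of the mitochondrial genome 11 rose and 0 fell (median 0.89), and among the 59 of snoRNAs 18 rose and 0 fell (median 0.78). The 92 probe sets of tRNA genes had a median of 0.46, with 3 that rose. These counts are descriptions and were not tested against each other. As background, mature snoRNAs and tRNAs carry no poly(A) tail and mitochondrial messages of yeast carry none either. The sources used here do not give how the cDNA was primed, and the part of priming was not tested. In what follows a gene is represented by its brightest probe set, by the mean over all 21 arrays. On that basis 62 of 5656 genes rose (1.10%) and 114 fell (2.02%), of which 62 (1.10%) and 109 (1.93%) were slow. Without the fold minimum 831 genes rose (14.7%) and 1193 fell (21.1%), and the median change of all 5656 genes was -0.04.

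**Figure D2:**
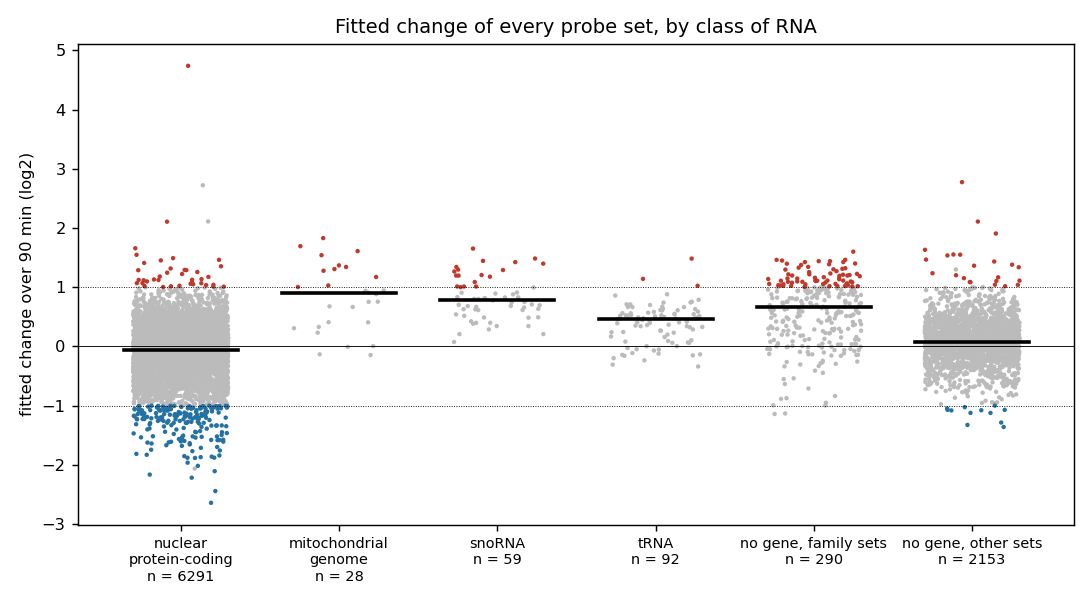
The fitted change over 90 min (y axis, log2) of every probe set in 6 classes (x axis, with the number of sets), red for called rises, blue for called falls and grey for the rest, with a bar at the class median and dotted lines at a 2-fold change. The medians of the mitochondrial genome (0.89), snoRNAs (0.78) and unnamed family sets (0.66) lie above that of nuclear protein-coding genes (-0.06).

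Among nuclear genes for respiratory complexes and ATP synthase, calls ran only downwards. Of 40 measured, 10 fell and 0 rose, all 10 as slow drifts, against 2.02% of all genes, and the median of the list was -0.55. Without the fold minimum 25 of the 40 fell, against 21.1% of all genes, and 0 rose. The strongest fall was in RIP1 (YEL024W, chromosome V), for the Rieske iron-sulfur protein that carries electrons inside the cytochrome bc1 complex. Its log2 signal was 12.10, 12.05 and 12.06 on the dry arrays and 11.81, 11.78 and 11.84 at 15 min. It was then 11.15, 11.10 and 10.66 at 45 min and 10.34, 10.16 and 10.36 at 90 min. Each group lay wholly below the one before, with no overlap. The fitted change was -1.83 ± 0.12 (limma, n = 12 arrays, adjusted p = 5.1e-07), yet no step between neighbours was called. The steps from 15 to 45 min and from 45 to 90 min, at -0.84 and -0.68, missed only the fold minimum (limma, adjusted p = 0.0291 and 0.00807). At 360 min RIP1 stood at 8.88, below its level of 11.40 in control cells.

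Cytochrome c oxidase, the enzyme that hands electrons to oxygen, had 4 falls among its 9 measured nuclear genes, against 2.02% of all genes. COX8 changed by -1.20 ± 0.13, COX6 by -1.20 ± 0.16, COX5A by -1.19 ± 0.09 and COX4 by -1.10 ± 0.12 (limma, adjusted p at most 7.86e-05). COX8 read 11.87, 11.97 and 11.81 in dry cells and 10.42, 10.53 and 10.95 at 90 min, with the means of 15 and 45 min (11.54 and 11.14) in between. With arrays centred on their medians, COX8 and COX6 fell short of the fold minimum, at -0.79 and -0.92. COX5A, a gene for the isoform used in air, did not move at first. Its mean was 11.25 in dry cells and at 15 min, then 10.78 at 45 min and 10.13 at 90 min. Its counterpart for low oxygen, COX5B, gave 0.26 ± 0.16 (adjusted p = 0.25). The remaining 4 genes, COX7, COX12, COX13 and COX9, gave -0.27, -0.26, -0.11 and -0.05, all below the fold minimum.

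In ATP synthase 3 of 17 nuclear genes fell by at least 2-fold and 11 fell without the fold minimum, against 2.02% and 21.1% of all genes. ATP17, for a subunit of the membrane part, changed by -1.22 ± 0.13, ATP3, for the central stalk, by -1.20 ± 0.09, and ATP19 by -1.003 ± 0.17 (limma, adjusted p at most 0.000551). ATP17 read 10.03, 10.04 and 10.15 in dry cells and 8.63, 9.06 and 8.93 at 90 min. The catalytic subunit genes ATP1 and ATP2 gave -0.09 ± 0.08 and -0.15 ± 0.08, neither past the test (adjusted p = 0.41 and 0.17). In the bc1 complex QCR10 fell with RIP1 (-1.15 ± 0.10), whereas COR1 and QCR6 gave -0.11 ± 0.10 and 0.01 ± 0.09. NDE1, the NADH dehydrogenase on the outer face of the inner membrane, fell by 1.09, while its isoenzyme gene NDE2 gave -0.07 ± 0.15. Within each complex, some genes were called and others were not. The grouping by complex was made after the values were seen.

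The mitochondrial genome encodes subunits of these same complexes, and its calls ran only upwards. Of 8 genes measured, 4 rose and 0 fell, against 1.10% and 2.02% of all genes, with a median of 1.11. Without the fold minimum 6 rose, against 14.7% of all genes. COB (Q0105), for cytochrome b of the bc1 complex, read 8.14, 8.42 and 8.55 in dry cells and 8.55, 8.37 and 8.21 at 15 min. It then read 9.13, 9.13 and 9.58 at 45 min and 9.75, 9.75 and 9.34 at 90 min. The dry and 15 min arrays overlapped and the rise lay after 15 min. The fitted change was 1.37 ± 0.18 (limma, adjusted p = 0.000102), and COB reached 11.11 at 360 min, against 6.64 in control cells. The other probe set of COB rose by 1.83, with a called step of 1.26 from 15 to 45 min (adjusted p = 0.0479), so on that set COB was not a slow drift. COX3, a core subunit of cytochrome c oxidase, rose by 1.34 ± 0.14 (adjusted p = 1.53e-05). Its dry and 15 min arrays also overlapped (means 6.97 and 6.90), and its means were 7.55 at 45 min and 8.195 at 90 min. With 50% of the median added COX3 gave 0.97, below the fold minimum.

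ATP6, for the proton channel of ATP synthase, rose by 1.28 ± 0.42 (adjusted p = 0.0337), but its dry arrays were spread from 7.91 to 9.76 and 1 of the 90 min arrays, at 9.29, lay within that span. VAR1, for a protein of the mitochondrial ribosome, was the steepest at 1.69 ± 0.31 (adjusted p = 0.00089). It was dim, however, with a mean signal of 16.5 in dry cells, below the 17.74 added before taking logs. With 50% of the median added it gave 0.72 and was not called, and its other probe set gave -0.01. ATP8 and COX1 passed the test below 2-fold, at 0.94 ± 0.21 and 0.68 ± 0.15, and 2 further probe sets of COX1 were called at 1.54 and 1.61. COX2 and OLI1 did not pass, at 0.41 ± 0.15 and 0.23 ± 0.19 (adjusted p = 0.0551 and 0.386). The median of the 8 mitochondrial genes was 0.97 at the deposited scaling and 1.19 with median centring, and that of the 40 nuclear genes -0.50 and -0.28. With run as a block the medians were 0.62 and -0.40.

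**Figure D3:**
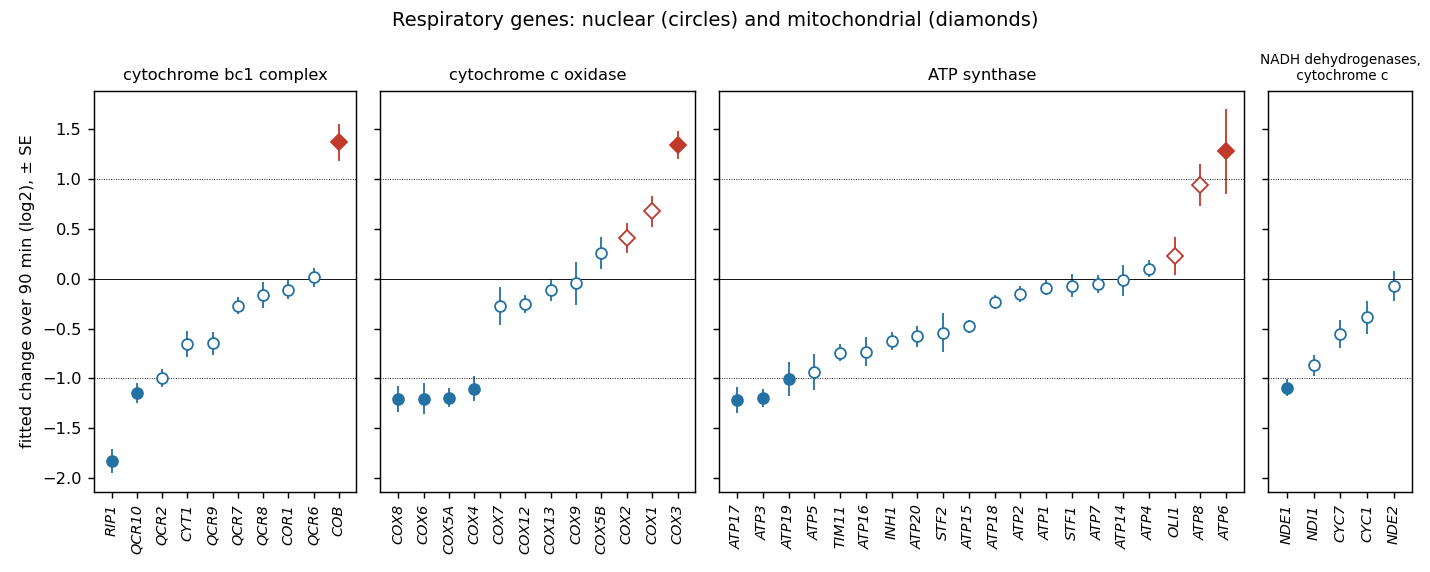
The fitted change over 90 min (y axis, log2, bars are ± 1 SE) of each respiratory gene (x axis), in a panel per complex, with blue circles for nuclear genes and red diamonds for mitochondrial genes. Filled symbols are called. The 7 mitochondrial genes lie above 0, from 0.23 to 1.37, and the 10 called nuclear genes lie between -1.83 and -1.003.

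The small RNAs of the nucleus gave the largest count of rises of any list. Of 62 snoRNAs and snRNAs measured, 20 rose and 0 fell, all as slow drifts, against 1.10% of all genes, and the median was 0.76. Without the fold minimum 50 of the 62 rose, against 14.7% of all genes. SNR17A, the U3 snoRNA that is needed to cut the precursor of small-subunit ribosomal RNA, read 7.39, 7.45 and 7.83 in dry cells and 7.70, 7.85 and 7.96 at 15 min. It read 8.35, 8.41 and 8.68 at 45 min and 9.02, 8.95 and 8.86 at 90 min. The dry and 15 min arrays overlapped by 1 array, and the later groups lay apart. The fitted change was 1.40 ± 0.13 (adjusted p = 6.31e-06), and U3 reached 10.54 at 360 min. SNR128 (U14), which has a part in the same cutting, rose by 1.27 ± 0.14.

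SNR48 and SNR66, which guide methylation of large-subunit ribosomal RNA, rose by 1.65 ± 0.17 and 1.44 ± 0.17 (adjusted p = 1.36e-05 and 3.95e-05). SNR4, a further snoRNA, rose by 1.48 ± 0.13 (adjusted p = 3.98e-06). It read 9.52, 9.48 and 9.76 in dry cells, 10.05, 10.08 and 9.92 at 15 min, 10.43, 10.75 and 10.82 at 45 min and 11.11, 11.08 and 11.13 at 90 min. Its 4 groups did not overlap. Of the spliceosomal RNAs, SNR7-L, the long form of U5, rose by 1.48 ± 0.13 (adjusted p = 4.02e-06) and SNR19 (U1) by 1.15 ± 0.12. U6, the product of SNR6, which a different polymerase makes, gave -0.03 ± 0.10 (adjusted p = 0.86) and was the only measured member of the list with a negative change. The snoRNA and snRNA list kept a positive median at the deposited scaling (0.64), with median centring (0.86) and with run as a block (0.95). Of the 2 probe sets of TLC1, the RNA of telomerase, 1 was called at 1.17 ± 0.16 and the other gave 0.70 ± 0.09.

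**Figure D4:**
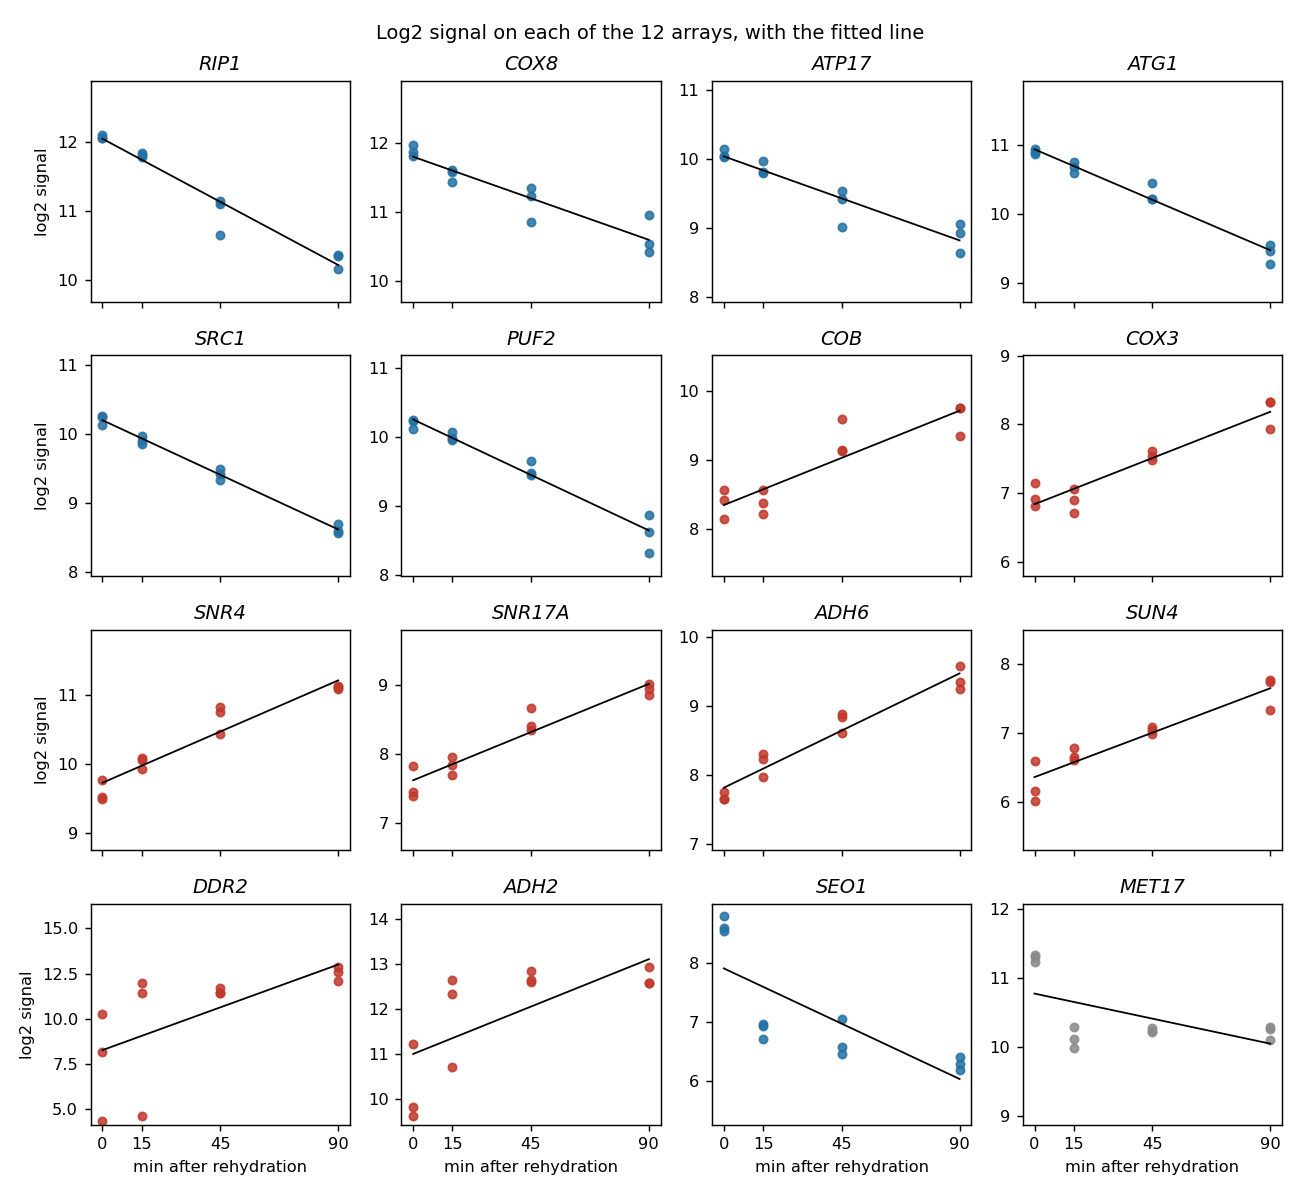
The log2 signal (y axis) of 16 genes on each of the 12 arrays (points) against minutes after rehydration (x axis, dry cells at 0), with the fitted line, red for called rises, blue for called falls and grey for a line that was not called. RIP1, SRC1 and SNR4 follow the line closely, whereas DDR2 and ADH2 are scattered before 45 min, and SEO1 and MET17 drop by 15 min.

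Beyond respiration, the genes with the largest slow falls were of varied function. APS3, for the small subunit of the AP-3 coat that carries cargo to the vacuole, changed by -1.82 ± 0.16 (adjusted p = 3.95e-06), from a dry mean of 6.36 to 4.64 at 90 min. Its first step was -0.01, and its last, at -0.998, fell just short of the fold minimum (limma, adjusted p = 0.00789). Its 90 min signals of 11.3, 6.7 and 3.0 lay below the added value, and with 50% of the median added the change was -0.72 and no longer called, so its size is not well fixed. YCK3, a casein kinase of the vacuole membrane, changed by -1.60 ± 0.17. SRC1, for a protein of the inner nuclear membrane, was the tightest of all called lines (adjusted p = 2.06e-08). It read 10.14, 10.26 and 10.25 in dry cells, 9.91, 9.85 and 9.98 at 15 min, 9.33, 9.41 and 9.50 at 45 min and 8.69, 8.59 and 8.57 at 90 min. Its groups did not overlap, and the change was -1.58 ± 0.07, although its second probe set gave -0.70. LDO45, for a protein of lipid droplets, changed by -1.62 ± 0.16 and RRT6 by -1.64 ± 0.14. COS7, of a family of near-identical genes near chromosome ends, gave -1.58 ± 0.23, a value that cannot be assigned to 1 family member.

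In the list of autophagy and vacuolar protease genes, all calls were falls. Of 41 genes 3 fell, against 2.02% of all genes, and 0 rose, and the list median was -0.16. At any fold 11 fell and 6 rose, against 21.1% and 14.7% of all genes. ATG1, for the kinase that starts autophagy, read 10.90, 10.87 and 10.94 in dry cells, 10.75, 10.68 and 10.59 at 15 min, 10.21, 10.21 and 10.45 at 45 min and 9.28, 9.46 and 9.55 at 90 min. Its change was -1.46 ± 0.09 (adjusted p = 3.23e-07), and the groups did not overlap. In control cells ATG1 stood at 8.28 and in 50% dry cells at 10.16. ATG22, for a vacuolar amino acid exporter, changed by -1.15 ± 0.11, and ATG3, for the enzyme that joins Atg8 to lipid, by -1.03 ± 0.10, close to the fold minimum and below it under several other settings (-0.997 to -0.876). The list median changed sign with median centring (0.05).

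In the list of 51 genes of meiosis and sporulation, a programme that yeast diploids enter when starved, 2 fell and 1 rose, against 2.02% and 1.10% of all genes. By the adjusted p alone 9 fell and 6 rose, against 21.1% and 14.7%, so the list as a whole did not stand above the background. RIM4, for an RNA-binding protein of early meiosis, changed by -1.61 ± 0.13 (adjusted p = 1.99e-06) and IME1, the master regulator of entry into meiosis, by -1.18 ± 0.17 (adjusted p = 0.000174). IME1 read 9.87, 9.61 and 9.81 in dry cells and 8.13, 8.70 and 8.49 at 90 min, against 11.76 in 50% dry and 7.64 in control cells. On the line over 15 to 90 min IME1 gave -0.92, below the fold minimum. SGA1, for the glucoamylase of sporulation, rose by 1.12 ± 0.09 (adjusted p = 1.76e-06) from a dry mean of 8.70 to 9.89. It fell short of the fold minimum at the deposited scaling (0.95) and on the line over 15 to 90 min (0.96), and its other probe set gave 0.81.

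Among genes of mRNA turnover 3 of 55 fell, against 2.02% of all genes, and 0 rose. By the adjusted p alone 11 fell, a share close to the 21.1% of all genes, and 4 rose. PUF2, for an RNA-binding protein of the PUF family, changed by -1.61 ± 0.11 (adjusted p = 5.56e-07), from a dry mean of 10.21 to 8.61. MTR3, an exosome subunit, changed by -1.33 ± 0.33, and CDC39, the scaffold of the Ccr4-Not deadenylase, by -1.01 ± 0.12. CDC39 lay at the fold minimum and lost its call with median centring (-0.92), on the line over 15 to 90 min (-0.83), and without 1 of 2 dry arrays (-0.97 and -0.93), among other settings. In the proteasome list 2 of 49 fell, against 2.02% of all genes. ECM29, which tethers the core to its cap, changed by -1.70 ± 0.16 (adjusted p = 4.92e-06) and RPN12, a subunit of the lid, by -1.23 ± 0.11. A shift below 2-fold was broader there, with 26 of the 49 falling and 0 rising without the fold minimum, against 21.1% and 14.7% of all genes, and a list median of -0.32 (-0.38 at the deposited scaling and -0.16 with median centring). ECM29 and CDC39 are long genes with 8 and 9 probe sets, whose changes ran from -1.70 to 0.39 and from -1.52 to 0.51, so their falls were not shared by all sets.

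The list of small-subunit processome factors, which assemble on U3, had 3 falls, against 2.02% of all genes, and 0 rises in 52 genes. At any fold 6 passed the test downwards, a smaller share than the 21.1% of all genes, and 4 rose. IMP3 changed by -1.13 ± 0.19, RRP7 by -1.08 ± 0.14 and SAS10 by -1.08 ± 0.09 (adjusted p at most 0.000605). With 50% of the median added, IMP3 gave -0.67 and RRP7 -0.82, both below the fold minimum, and RRP7 also fell short of it without the first or the second 90 min array (-0.993 and -0.994). The median of the list was -0.02. In the list of amino acid synthesis outside the arginine, lysine and sulfur pathways 3 of 52 fell, against 2.02% of all genes, and 0 rose. The adjusted p alone gave 12 falls and 6 rises, shares near the background. The 3 that fell were GLY1, for threonine aldolase (-1.23 ± 0.12), ILV5, for a step of branched-chain synthesis (-1.18 ± 0.13), and GLN1, for glutamine synthetase (-1.01 ± 0.19). GLN1 lost its call without any 1 of 4 arrays, 2 dry and 2 of 90 min, with values from -0.99 to -0.82. Median centring took ILV5, SAS10 and GLN1 below the fold minimum (-0.95, -0.94 and -0.55).

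Rising messages from nuclear protein-coding genes were fewer, and the cell wall list held the most of them. In that list of 53 genes 5 rose and 1 fell, against 1.10% and 2.02% of all genes. The adjusted p alone gave 20 rises and 8 falls, against 14.7% and 21.1%. EXG2, for an exo-beta-glucanase at the surface, rose by 1.46 ± 0.13 (adjusted p = 3.62e-06), and SUN4, for a wall protein of cell separation, by 1.29 ± 0.15. With 50% of the median added, EXG2 gave 0.91 and SUN4 0.82, below the fold minimum. CIS3, a structural wall mannoprotein, rose by 1.24 ± 0.14. SUN4 read 6.02, 6.60 and 6.17 in dry cells and 7.78, 7.74 and 7.33 at 90 min, still below the 11.56 of control cells, and CIS3 rose from a mean of 8.14 to 9.37, against 12.06 in control cells. PRY3 and DSE4, the latter for a daughter-cell glucanase, rose by 1.07 ± 0.21 and 1.01 ± 0.22, and DSE4 gave -0.09 with run as a block. PIR3, a further structural wall protein, fell by 1.204, from a mean of 10.55 to 9.36. The list median was 0.22 and kept its sign in every scaling tried, but was -0.09 with run as a block.

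ADH6, for an NADPH-dependent alcohol dehydrogenase, followed the line closely. It read 7.75, 7.65 and 7.66 in dry cells, 8.23, 8.30 and 7.97 at 15 min, 8.84, 8.89 and 8.61 at 45 min and 9.26, 9.35 and 9.58 at 90 min. Its groups did not overlap, and the change was 1.66 ± 0.13 (adjusted p = 1.42e-06). HMS2, for a protein resembling heat shock factors, rose by 1.55 ± 0.23 (adjusted p = 0.000221). In control cells ADH6 stood at 10.96 and HMS2 at 9.06, and both lay nearer those levels at 90 min (9.40 and 8.12) than in dry cells (7.69 and 6.40).

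A pair of stress and carbon genes had steep lines with wide scatter. DDR2, a small gene induced by many stresses, had the steepest fitted rise, at 4.74 ± 1.55 (adjusted p = 0.0314). Its dry arrays read 4.32, 8.14 and 10.28, and its 15 min arrays 4.62, 11.95 and 11.44. At 45 min they read 11.69, 11.40 and 11.44 and at 90 min 12.86, 12.59 and 12.08. The dry and 15 min groups overlapped, with 1 array of each near the floor and the other 15 min arrays above every dry array, and the call was lost without any 1 of 4 arrays (adjusted p 0.0561 to 0.0739). ADH2, for the alcohol dehydrogenase that consumes ethanol, rose by 2.11 ± 0.59 (adjusted p = 0.0143), with means of 10.23, 11.91, 12.71 and 12.71. It was level after 45 min, and the line over 15 to 90 min gave 0.88 (adjusted p = 0.256). HSP12, for a membrane-protecting hydrophilin, rose by 1.02 ± 0.27 (adjusted p = 0.0094), with dry and 15 min arrays overlapping.

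Other lists held at most 2 called members, named here after their values were seen. ERG1 and ERG13 of sterol synthesis (-1.16 ± 0.15 and -1.16 ± 0.13), TRX3, a mitochondrial thioredoxin (-1.04 ± 0.10), and GAC1, which directs a phosphatase to glycogen (-1.29 ± 0.14), fell. So did RTN2, a reticulon of the endoplasmic reticulum (-1.05 ± 0.08), TIF6, for a factor of large-subunit assembly (-1.08 ± 0.08), AGP2, for a regulator of transport at the plasma membrane (-1.53 ± 0.12), and SAM2, for S-adenosylmethionine synthetase (-1.08 ± 0.30). The 2 sterol genes did not stand for their list, whose median was 0.15 (-0.13 with run as a block), with 25 of 40 genes above 0. Without the fold minimum 11 of the 40 sterol genes rose and 6 fell, against 14.7% and 21.1% of all genes. Rises were found in MRS3, an iron carrier of mitochondria (1.07 ± 0.15), DAL2, of allantoin use (1.04 ± 0.15), SOL3, of the pentose phosphate pathway (1.12 ± 0.18), and IMD4, for IMP dehydrogenase (1.29 ± 0.12). IMD4 and SAM2 have close paralogs that could share signal.

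Of the 40 lists, 17 held no called gene. They include genes of the TCA cycle (0 of 17, median -0.27), the glyoxylate cycle and gluconeogenesis (0 of 22, median -0.14), peroxisomal fatty acid oxidation (0 of 38, median -0.04) and chaperones (0 of 36, median -0.17). The medians of these 4 lists changed sign with median centring (0.01, 0.36, 0.19 and 0.12), so no direction is given for them. Since 1.10% of all genes rose and 2.02% fell, a list of such size without a call says little. Without the fold minimum 7 of the 17 TCA cycle genes fell and 0 rose, against 21.1% and 14.7% of all genes.

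**Figure D5:**
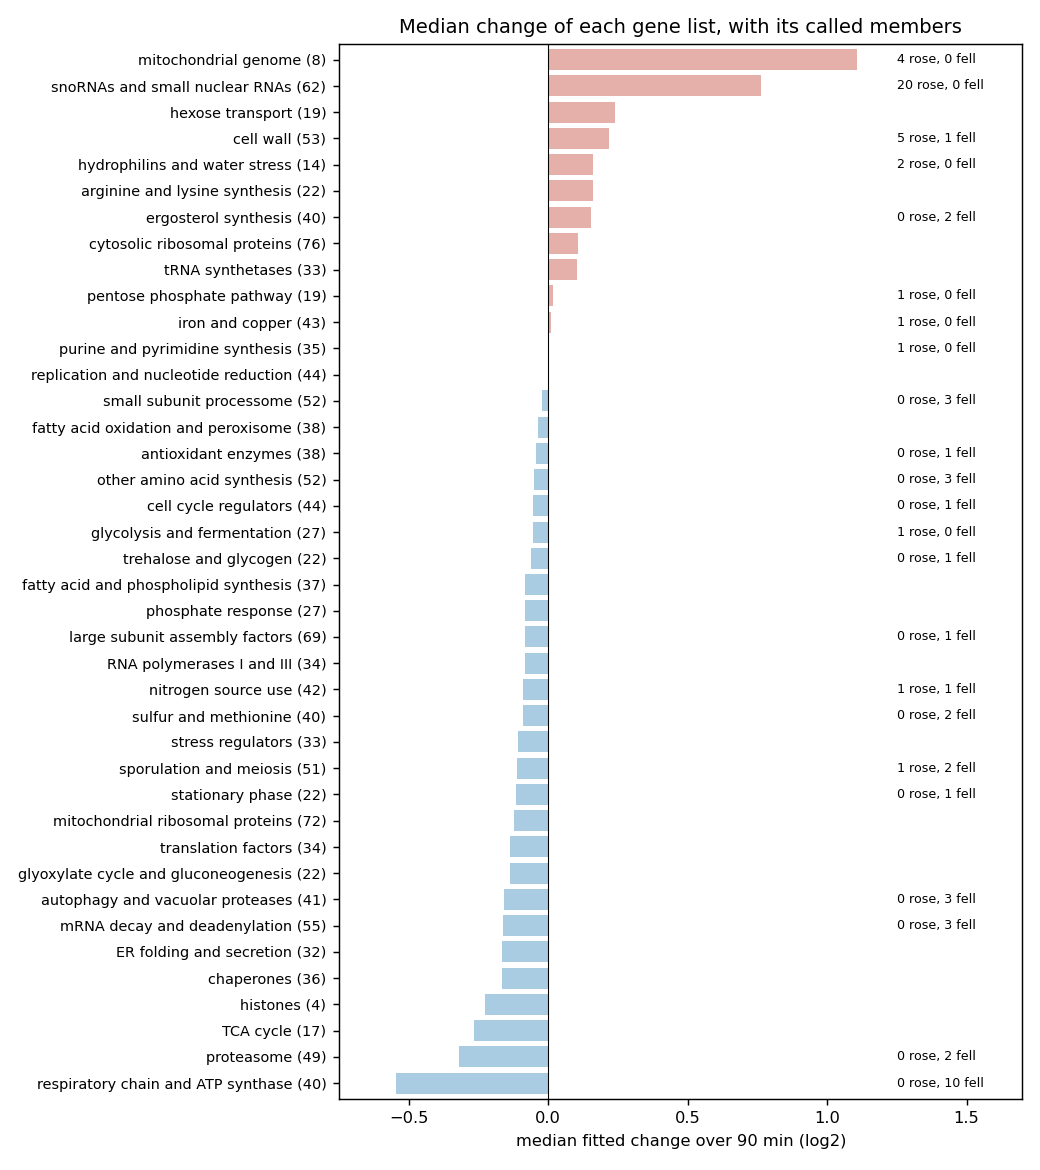
The median fitted change over 90 min (x axis, log2) of each of the 40 gene lists (y axis, with the number of members measured), with the called members written beside those lists that had any. The respiratory list is lowest at -0.55, and the mitochondrial genome (1.11) and the snoRNA list (0.76) are highest.

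Cytosolic ribosomal protein genes gave no call on their brightest sets, on the line or in a step. Of the 3 sets each of RPL31B and RPS22B, 1 set that was not the brightest was called as a rise (1.14 and 1.18). Of 131 listed, 76 were measured and 0 were called. Without the fold minimum 11 rose and 2 fell, against 14.7% and 21.1% of all genes. The share of rises was thus near the background and that of falls below it. Their median fitted change was 0.11 (-0.27 with run as a block). The median difference was -0.33 from dry to 15 min, with 72 of 76 below 0, then 0.08 from 15 to 45 min, and 0.30 from 45 to 90 min, with 7 of 76 below 0. These are medians of differences that were not tested as a group. Over all probe sets the medians of these steps were 0.008, -0.002 and 0.001, and the share of all genes below 0 in each step is not given here.

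A step was called without a called line on 11 probe sets (0.119%). MET17, for the enzyme that fixes sulfide in methionine synthesis, is the only one of these that names exactly 1 gene and on which the departure from the line also passed the test (adjusted p = 0.0007). It read 11.23, 11.33 and 11.31 in dry cells and 10.11, 9.98 and 10.28 at 15 min, and stayed between 10.10 and 10.28 at 45 and 90 min. All 9 rehydrated arrays lay below all 3 dry arrays, and the line gave -0.73 ± 0.29 (adjusted p = 0.068). SEO1, for a putative permease, also fell early, but its line was called (-1.87 ± 0.41, adjusted p = 0.00351). It read 8.60, 8.54 and 8.79 in dry cells, 6.94, 6.97 and 6.71 at 15 min and 6.19, 6.40 and 6.29 at 90 min. The last step was the called one in DED1, for an RNA helicase of translation initiation (-1.96 ± 0.13, adjusted p = 5.1e-07), and MET13, for methylenetetrahydrofolate reductase (-1.75 ± 0.13, adjusted p = 1.15e-06). The means of 45 and 90 min were 9.30 and 8.10 for DED1 and 9.90 and 8.77 for MET13.

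The drifts were set beside the change from control to 50% dry cells, called drying here, which shares no array with the line. The control arrays had a hybridization run and a scan day of their own. The 50% dry arrays shared another run with 1 dry array of the line. Drying therefore cannot be told apart from run, scan day or the 18 h that passed. In this contrast 1208 probe sets rose (13.0%) and 1285 fell (13.9%). Of the 195 slow falls 49 (25.1%) had risen during drying and 21 (10.8%) had fallen. Of the 170 slow rises 10 (5.88%) had risen and 25 (14.7%) had fallen. Read the other way, slow falls made up 4.06% of the probe sets that rose in this contrast and 1.63% of those that fell. The meiotic genes IME1 and RIM4 and the autophagy gene ATG1 rose in drying and fell on the line, whereas SUN4 and CIS3 fell in drying and rose on the line. RIP1 stood at 11.40 in control cells, 11.92 in 50% dry cells and 12.07 in dry cells.

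At 360 min, beyond the line, 161 of the 170 slow rises stood above their 90 min mean and 170 above their dry mean, and 25 and 1 of the 195 slow falls did so. Over all probe sets 49.2% stood above their 90 min mean. These comparisons share arrays with the line and are given as levels only. The 360 min arrays also had a hybridization run of their own, so the change from 90 to 360 min cannot be told apart from run. The median difference from 90 to 360 min was 0.77 for slow rises and -0.53 for slow falls. ILV5 was among the exceptions, at 9.72 at 90 min and 10.29 at 360 min.

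What probe sets of a gene measure differed with their design. The array carries 890 tested probe sets with ID numbers below 3000, many of which lie along long genes with several sets each. Of these 69 fell and 5 rose, against 141 falls and 171 rises among the other 8385. Sets of 1 gene often disagreed. FAS1, for a subunit of fatty acid synthase, had 5 called falls among 8 sets, spread from -2.02 to 0.31, and its brightest set gave -0.23. HKR1, for an osmosensor, had 2 falls and 1 rise among 8 sets. GSC2 and KRE5, of glucan synthesis, had 3 falls each among 7 and 6 sets, while their brightest sets gave 0.19 and 0.34. These genes were chosen after their values were seen. Without the tiling sets 165 slow rises and 133 slow falls were called. By length of the gene, the median change of protein-coding genes was -0.10 up to 500 bases, -0.14 from there to 1000, -0.05 to 2000, 0.03 to 3000 and 0.08 above.

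On the rising side 91 of the 176 called sets name no gene. Of the 290 unnamed sets with the family suffix, which marks probes shared by several similar sequences, 68 rose and 0 fell (median 0.66). Sets of that kind can read the same RNAs, so they are not independent. Of the other 2153 unnamed sets 23 rose and 12 fell. With plain sets of 1 target only, outside the tiled genes, 66 slow rises and 122 slow falls were called, an alternative added after seeing the data.

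HIS3, LEU2 and URA3, which carry deletions in the strain, gave no called line. URA3 lay between 4.21 and 4.42 on all 12 arrays, close to the floor that the added value sets, and the 3 probe sets of LEU2 stayed at mean signals of 28.3 or less. HIS3 was measured above the floor, at 7.12 in dry cells and 7.68 at 90 min (0.50 ± 0.10, adjusted p = 0.00222), below the fold minimum. Its other probe set gave 0.44, and in control cells the sets stood at 9.68 and 7.95. The part of the gene that its probes match is not given in the sources used here.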

How the data were processed

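The deposited values are linear probe-set intensity values, never negative. Per the labels, the authors read the Affymetrix yeast arrays with the maker's expression software, tested probe-set signals by a signed rank test and combined them with a linear mixed model. The scaling and the software version are not given in the sources used here, and the number of arrays limits the precision. The median signal differed between arrays as deposited, and arrays were scaled again here. Of 9335 probe sets, 60 controls were left out of the tests. An added value of 17.74 (10% of the median signal of 177.4) was followed by log2 and by quantile normalization over the 21 arrays. In R 4.3.3 with limma 3.58.1, a line on minutes was fitted to the 12 arrays with a variance trend, giving 10 residual and 3.511 prior degrees of freedom, and neighbouring groups were compared in a model of group means. All adjusted p-values are limma's with Benjamini-Hochberg adjustment over all tested probe sets, except those of the exact permutation tests.

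Gene names came from the array annotation updated through RefSeq. Of the 9275 sets tested, 6504 name 1 gene, 328 several and 2443 none, covering 5656 genes. The arrays follow from the titles, but the gene lists (1596 genes, 1488 measured) and the rule for named genes were chosen with earlier results of these data known. That rule took, among brightest sets of genes with a standard name whose 90 min and dry arrays did not overlap, the 10 largest ordered slow rises and falls, the 5 largest called rises and falls, 2 to 4 members of lists with many calls, the largest early steps that left the line, and the deleted genes. Other list members were named after their values were seen. Hybridization runs and scan days were read from the run records.

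Equal replicate numbers did not pair the arrays, since deviations of same-numbered arrays correlated at -0.237 to 0.173. On simulated data 44.5% of 200 straight 2-fold lines and 0.0236% of 8475 unchanged probe sets were called. The simulated arrays held independent noise alone, without the run, scan-day and RNA-quality differences that follow time in these data. The share of unchanged sets called is therefore not a rate of false calls here. Permutation tests used scipy 1.17.1 in Python 3.11.15, tables pandas 2.3.3 with numpy 2.4.6, and plots matplotlib 3.10.9. Alternatives were other added values, scalings, thresholds, run and replicate blocks, other time scales and each array left out. Promoter sequences were not used here.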

Additional observations from a re-analysis of the deposited data

How the results depend on the processing

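Counts of called probe sets depended on the added value, the scaling, the fold minimum, the run block and the probe sets kept. With 1% of the median added, 285 rose and 316 fell on the line, 270 were slow rises, 74 had a called step and 27 of these had no called line. With 50% added the counts were 87 and 96, with 83 slow rises, 93 slow falls, 11 stepped sets and 4 without a line. At the deposited scaling 322 fell, 301 of them slowly, and 17 stepped sets had no line. With median centring 293 rose, 282 of them slowly. Without any fold minimum there were 1454 rises, 1554 falls, 1306 slow rises, 1190 slow falls and 588 stepped sets, 76 of which had no line. With the minimum dropped for steps alone, 84 slow falls were left, and 410 of the 588 stepped sets had no line. Leaving out the dimmest 20% left 7 steps without a line.

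With run as a fixed block, 49 rose and 5 fell, 20 and 4 of them slowly. That fit takes no slope from the 90 min arrays, and its step from 45 to 90 min still holds the difference between runs. Of the 44 called genes named by rule, 37 lost their call, and DDR2 and VAR1 reversed to -1.23 and -0.81. As a random block (correlation -0.0684), run left 178 rises and 209 falls. With the replicate number as a block, which the correlations do not call for, 173 rose and 210 fell, with 170 and 197 slow, 24 stepped sets and 8 without a line. An alternative added after seeing the data kept plain probe sets with IDs of 3000 or more and gave 69 rises and 130 falls, 66 and 122 of them slow, with 18 stepped sets and 7 without a line.

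Leaving out each array in turn gave 162 to 208 rises, 193 to 228 falls, 158 to 201 slow rises, 181 to 215 slow falls, 24 to 36 stepped sets and 6 to 14 without a line. Besides the fixed run block, 20 named genes lost their call in at least 1 setting. The causes were not tested, except that fewer probe sets or arrays enter some fits. The promoter motif search planned with these alternatives was not run.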
